A study of Mus musculus with 30 samples.

Results

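Baseline lungs of old Zmpste24 deficient mice were compared with those of old wild type (WT) mice, that is, accelerated with physiological aging. The comparison rested on 6 of the 30 arrays of the series, chosen by their titles: 3 lungs of Zmpste24 -/- mice aged 16 weeks (KO_old_sal) and 3 lungs of zmpste24 +/+ mice aged 82 weeks (WT_old_sal). All 6 mice were on the c57BL/6 strain, carried or lacked Zmpste24 in every tissue (a germline deficiency, typed by PCR on tail DNA), and had received oropharyngeal saline 21 days before the lungs were perfused with saline and taken. Each lung gave the RNA for 1 Affymetrix whole-transcript array, and the values are log2 expression values. The labels place all KO_old_sal arrays in array set 1 and all WT_old_sal arrays in array set 2, which were run at different moments. Genotype, age in weeks and array set therefore changed together and cannot be told apart within these 6 arrays.

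Zmpste24 encodes a zinc metalloprotease of the endoplasmic reticulum and inner nuclear membrane that clips farnesylated prelamin A to give mature lamin A. Without it prelamin A stays farnesylated and builds up at the nuclear lamina, nuclei become misshapen, and mice develop a progeroid syndrome within months of birth. In a naturally aging lung, by contrast, low-grade inflammation, lipid-laden macrophages and changes of the extracellular matrix are known features.

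The libraries were not equally uniform. The array KO_old_sal 3 had an interquartile range of 2.22 on the log2 scale against 2.56 to 2.76 in the other 29 arrays, and a mean correlation with the other arrays of 0.944 against 0.968 to 0.981. Its Xist value was 9.86 against 4.21 to 4.68 in the other 5 arrays, and its Eif2s3y value, from the Y chromosome, was 4.75 against 8.20 to 8.48, so that the old Zmpste24 deficient group held a female-like array and the old WT group did not. The median within-group SD over all genes was 0.304 in the old Zmpste24 deficient group, the highest of the 10 groups, and 0.13 in the old WT group, the lowest. For this reason the main counts are given with and without KO_old_sal 3. A further fit carried the array set as a term, estimated from the young saline arrays of each genotype, present in both sets, and the old groups were also set against the young WT saline mice of their own set (WT_young_v1_sal in set 1, WT_young_v2_sal in set 2). The labels give these young WT mice an age of 16 weeks in set 1, the same as the old Zmpste24 deficient mice, and of 7 weeks in set 2, and the young Zmpste24 deficient saline mice an age of 7 weeks in both sets. By these labels the set 1 comparison is between mice of equal age, while that of set 2 spans 7 to 82 weeks. The median over 4 sex-linked genes was 1.288 for old minus young WT mice of set 2, although no old WT array was female-like. For old Zmpste24 deficient minus young WT mice of set 1, with KO_old_sal 3 included, it was -1.171. With the set term the Xist difference between the old groups moved from 1.76 to 3.67, and that of Eif2s3y from -1.19 to -2.56. None of these genes was called. The comparisons within set 1 and set 2 and the fit with the set term thus also carried sex-linked differences.

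Zmpste24 itself was read first, as a check of the labels. The old Zmpste24 deficient arrays read 6.56, 5.87 and 5.81 (replicates 1 to 3, in this order throughout) and the old WT arrays 8.59, 8.46 and 7.98. The groups did not overlap, and Zmpste24 was 4.81-fold lower in the old Zmpste24 deficient mice (log2 difference -2.27 ± 0.40 SE, n = 3 against 3, limma adjusted p = 0.000366). Within set 1 the difference from young WT mice was -2.24 (adjusted p = 0.0558), whereas old and young WT mice of set 2 differed by 0.04. The place of the probes relative to the removed stretch is unknown here, so nothing can be read from the residual signal. In the fit with the set term the difference was -1.75 (adjusted p = 0.0395), and it was -1.61 with an adjusted p of 0.0895 when KO_old_sal 3 was also left out. The young knockout arrays that carry this term reached Zmpste24 values of 7.55 in set 1 and 7.93 in set 2, close to the young WT range of 7.93 to 8.53 in set 2, which bears on every value from that fit.

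Among called genes more were lower than higher in the old Zmpste24 deficient lung, by a margin that varied with the fit. The median difference over all genes was -0.037. Of 22180 genes tested, 3030 (13.7%) passed limma at an adjusted p under 0.05, 764 higher (3.44%) and 2266 lower (10.2%) in the Zmpste24 deficient mice. Of these, 486 (2.19%) also differed by more than 1 on the log2 scale, 111 higher (0.5%) and 375 lower (1.69%). Without KO_old_sal 3 the calls were 2331 (10.5%), with 948 higher (4.27%) and 1383 lower (6.24%). With the set as a term they were 1393 (6.28%), with 337 higher (1.52%) and 1056 lower (4.76%), and with the set as a term and without KO_old_sal 3 they were 1485 (6.7%), with 734 higher (3.31%) and 751 lower (3.39%). Quantile normalization turned the split into 1484 higher and 1713 lower, and centring each array on its median into 1076 higher and 1671 lower. The 3 arrays of one group lay wholly above or below those of the other in 4964 genes (22.4%), with the Zmpste24 deficient arrays above in 1460 (6.58%) and below in 3504 (15.8%).

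**Figure D1:**
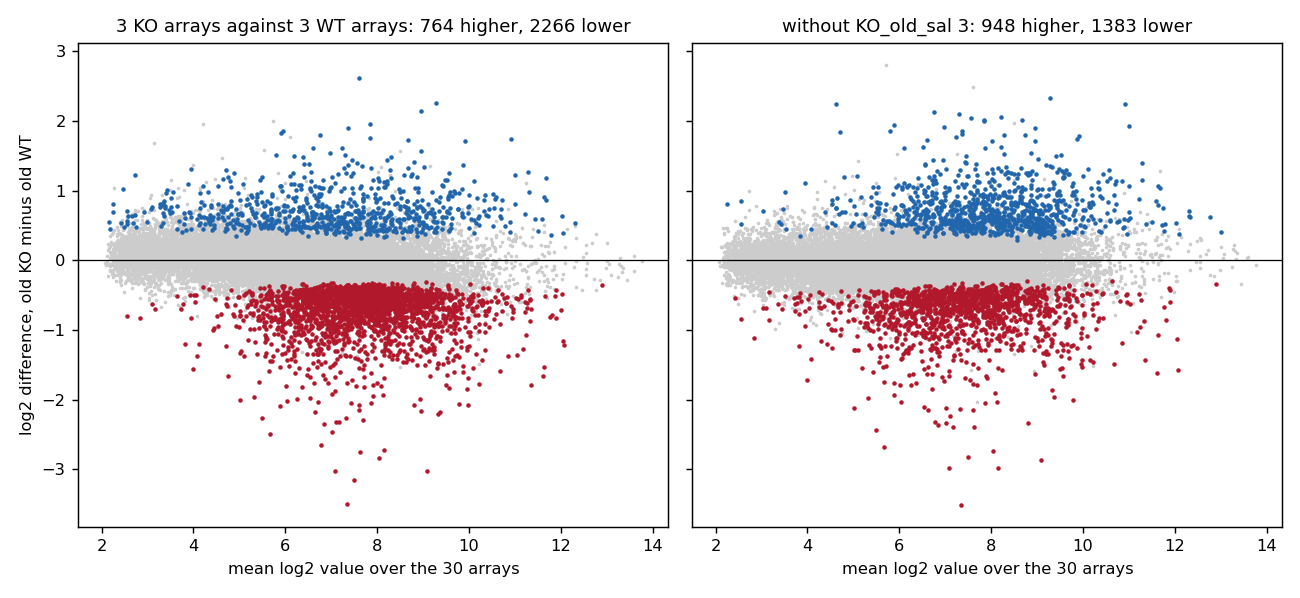
Log2 difference of old Zmpste24 deficient minus old WT saline lung (vertical axis) against the mean log2 value over the 30 arrays (horizontal axis), 1 point per gene; blue points were called higher and red points lower (limma adjusted p under 0.05), grey points were not called. With all 6 arrays (left) 764 genes were higher and 2266 lower, and without KO_old_sal 3 (right) 948 were higher and 1383 lower.

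Lower calls outnumbered higher calls in the brightest quartile of genes but not in the dimmest, where 137 were called higher and 51 lower. The dimmest quartile had 36 higher and 71 lower without KO_old_sal 3. The middle quartiles were not counted, so where the rest of the surplus lay is not shown. In the brightest quartile (5545 genes) 283 were called higher and 1091 lower, against 548 higher and 529 lower without KO_old_sal 3. That array read lower than the mean of KO_old_sal 1 and 2 by a median of -0.59 in the brightest quartile and higher by a median of 0.38 in the dimmest, so the balance of directions moved with 1 array. Of the 2266 lower calls, 1240 were also called lower without KO_old_sal 3 and 1006 with the set term. Of the 764 higher calls, 497 and 315 were.

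The 12 genes lowest in the old Zmpste24 deficient mice, among genes called in both fits with arrays that did not overlap, were led by macrophage and matrix genes. Tnc, the matrix glycoprotein tenascin C of injured and remodelled tissue, read 5.80, 6.38 and 6.11 in the Zmpste24 deficient and 9.66, 9.61 and 9.53 in the old WT arrays, a difference of -3.50 ± 0.51 (11.3-fold, adjusted p = 4.39e-05). The old WT arrays lay close together and far above every Zmpste24 deficient array. Timp1, a secreted inhibitor of matrix metalloproteinases, read 7.12, 6.12 and 5.65 against 8.94, 9.07 and 8.83 (-2.65 ± 0.40, 6.28-fold, adjusted p = 7.48e-05). Mmp12, the macrophage metalloelastase, read 7.81, 6.82 and 7.01 against 10.36, 10.23 and 9.57 (-2.84 ± 0.39, 7.17-fold, adjusted p = 2.33e-05). Both genes separated the groups without overlap, Timp1 with the lowest value in KO_old_sal 3. In bulk lung, fewer cells of a type and less RNA per cell cannot be told apart.

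Most of the other lowest genes are receptors or enzymes of myeloid cells. Gpnmb, a transmembrane glycoprotein of lipid-laden macrophages, read 7.77, 8.23 and 7.54 against 10.87, 10.82 and 10.92 (-3.02 ± 0.25, 8.13-fold, adjusted p = 2.43e-08). Msr1, the class A scavenger receptor, read 6.49, 5.77 and 6.17 against 8.42, 8.70 and 8.36 (-2.35 ± 0.20, 5.09-fold, adjusted p = 2.43e-08). Every Zmpste24 deficient array of these genes was more than a full log2 unit under every old WT array. Clec4n, the lectin receptor dectin-2, read 6.98, 6.43 and 5.70 against 9.54, 9.54 and 9.48 (-3.16 ± 0.31, 8.91-fold, adjusted p = 2.74e-07). C3ar1, the receptor for complement C3a, read 7.89, 7.05 and 6.41 against 9.94, 9.90 and 9.75 (-2.75 ± 0.28, 6.72-fold, adjusted p = 4.76e-07). In both, KO_old_sal 3 was the lowest of the 6 arrays. Arg1, arginase 1 of alternatively activated macrophages, read 6.67, 6.58 and 6.83 against 9.23, 8.77 and 9.07 (-2.33 ± 0.35, adjusted p = 6.59e-05). Ms4a7, a four-span membrane protein of monocyte-derived macrophages, read 6.72, 6.65 and 6.31 against 9.26, 8.90 and 8.90 (-2.46 ± 0.25, adjusted p = 4.41e-07).

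The remaining 3 are a neutrophil gene, an epithelial gene and a neural adhesion gene. Cd177, a surface glycoprotein of neutrophils, read 6.75, 7.40 and 7.82 against 10.14, 10.09 and 9.92 (-2.73 ± 0.23, 6.63-fold, adjusted p = 2.43e-08). Of 14 neutrophil genes 3 were lower, where 10.2% of all genes were. They were Cd177, Ltf (-1.56), lactoferrin, and Mmp8 (-1.17), the neutrophil collagenase. S100a8, an abundant cytosolic protein of neutrophils, was not called at 7.91, 7.21 and 7.10 against 7.89, 7.82 and 8.03 (-0.51, adjusted p = 0.387). Sprr1a, a cornified-envelope protein of stressed epithelium, read 5.12, 5.89 and 5.36 against 8.36, 8.61 and 8.48 (-3.03 ± 0.46, 8.15-fold, adjusted p = 6.83e-05). Chl1, a neural cell adhesion molecule, read 4.49, 4.49 and 5.01 against 7.06, 7.38 and 7.06 (-2.50 ± 0.43, 5.66-fold, adjusted p = 0.00026).

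The 12 highest genes were a more mixed group. Zbtb16, a zinc finger transcription factor induced by glucocorticoids, led them with 10.84, 9.19 and 9.83 against 7.51, 7.75 and 7.82 (2.26 ± 0.38, 4.78-fold, adjusted p = 0.000234). Its lowest Zmpste24 deficient array was still above its highest old WT array by more than 1. Fmo1, a flavin-containing monooxygenase that oxidizes xenobiotics, had the smallest error of the 24 genes and read 10.40, 10.42 and 10.20 against 8.68, 8.61 and 8.60 (1.71 ± 0.15, 3.26-fold, adjusted p = 8.66e-08). Cyp1a1, the aryl hydrocarbon receptor-induced cytochrome P450, read 7.83, 7.51 and 6.56 against 5.94, 5.63 and 5.73 (1.53 ± 0.23, 2.89-fold, adjusted p = 7.4e-05). Both enzymes were lowest, within the Zmpste24 deficient group, in KO_old_sal 3.

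Most of the next 6 genes encode receptors. Ednrb, the endothelin receptor B of capillary endothelium, read 9.34, 9.41 and 8.54 against 7.36, 7.25 and 7.48 (1.73 ± 0.21, 3.32-fold, adjusted p = 5.49e-06). Fibin, a secreted protein listed with it among the capillary genes, read 8.74, 8.24 and 7.74 against 6.53, 6.50 and 6.44 (1.75 ± 0.21, 3.36-fold, adjusted p = 3.27e-06). Glp1r, the receptor for glucagon-like peptide 1, read 10.95, 12.14 and 10.04 against 9.20, 9.39 and 9.31 (1.74 ± 0.33, adjusted p = 0.000639). The Zmpste24 deficient arrays were widely spread for Glp1r, while the old WT arrays were tightly grouped. Gria1, a subunit of AMPA glutamate receptors, read 7.32, 8.09 and 7.24 against 6.08, 5.93 and 5.80 (1.61 ± 0.25, adjusted p = 0.000106). Clec12b, an inhibitory lectin receptor, read 7.48, 7.90 and 6.71 against 5.55, 5.79 and 5.35 (1.80 ± 0.29, adjusted p = 0.000116). Fam205a2, a gene for which no role is given here, read 8.09, 8.30 and 8.47 against 6.53, 6.41 and 6.21 (1.90 ± 0.28, adjusted p = 4.39e-05). It belongs to a family of near-identical copies, so its signal may be shared with its paralogs.

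The last 3 of the 12 have other roles. Hamp, the iron hormone hepcidin, read 6.63, 8.19 and 7.25 against 5.56, 5.48 and 5.17 (1.95 ± 0.44, adjusted p = 0.00385). Ecm2, an extracellular matrix protein, read 7.92, 8.30 and 6.36 against 6.07, 6.20 and 5.78 (1.51 ± 0.35, adjusted p = 0.00456), and its KO_old_sal 3 array was just above the old WT arrays. The microRNA gene Mir669m-1 read 6.34, 6.83 and 7.92 against 5.41, 5.77 and 5.48 (1.48 ± 0.33, adjusted p = 0.00332), with KO_old_sal 3 the highest. Without that array its difference was 1.04 (adjusted p = 0.0391). All 24 genes were still called without KO_old_sal 3.

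Of 21 protein-coding genes that the study itself names, 5 were higher and 11 lower (median -0.697). The study chose them on arrays of this series, so the direction is not independent evidence.

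**Figure D2:**
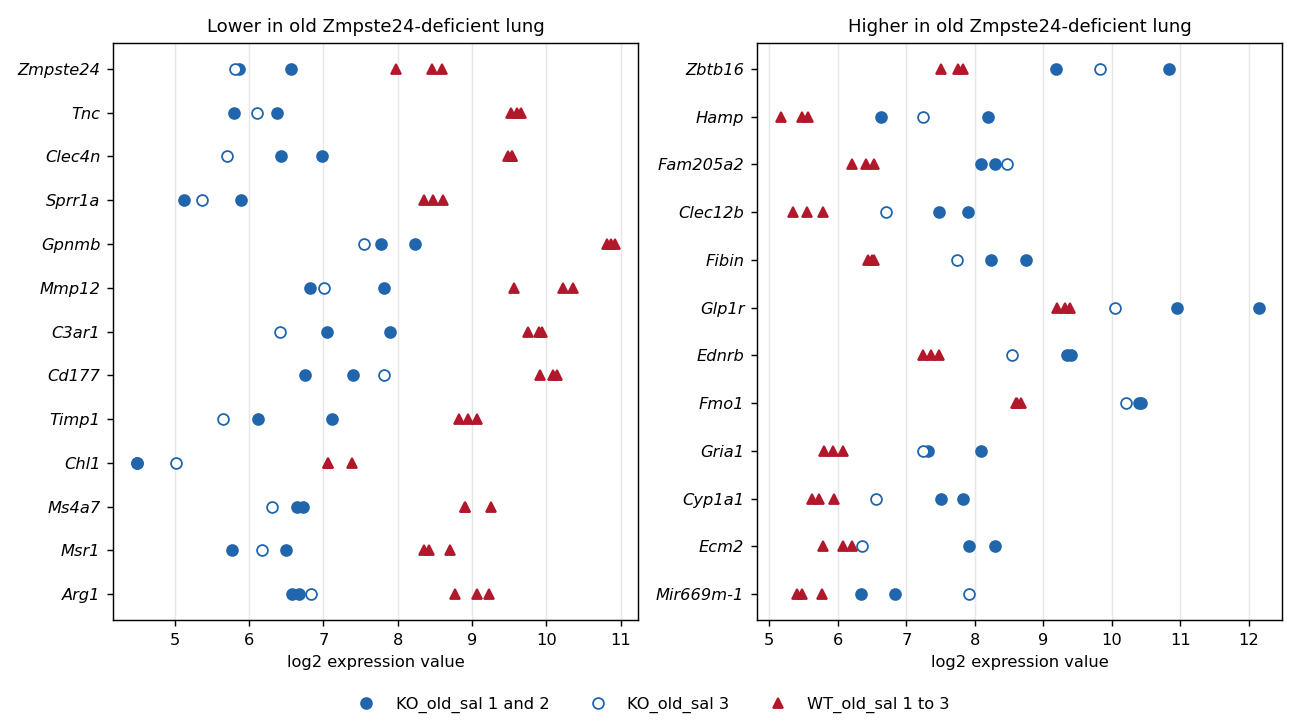
Log2 expression value (horizontal axis) of Zmpste24 and the 24 leading genes in each of the 6 arrays; filled blue circles are KO_old_sal 1 and 2, open blue circles KO_old_sal 3 and red triangles the 3 old WT arrays. In every row the blue and red points do not overlap, which for the 24 leading genes follows from how they were chosen. For Tnc they lie at 5.80 to 6.38 and 9.53 to 9.66.

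Within the array sets, most of the leading differences lay between old and young WT mice. Against young WT mice of set 1, the old Zmpste24 deficient mice differed by -0.52 to 0.44 in the 12 lowest genes, and 0 of the 24 genes were called. Against young WT mice of set 2, the old WT mice were higher by 2.37 to 3.27 in the same 12 genes, and 12 of 12 were called. Gpnmb, for example, differed by 0.09 ± 0.25 (adjusted p = 0.937) in set 1 and by 3.27 ± 0.25 (adjusted p = 4.99e-09) in set 2. Among the 12 highest genes, 11 were called lower in old than in young WT mice, and the 12 differences ran from -3.88 to -0.92. Mir669m-1 was the exception, at -0.92 with an adjusted p of 0.0895. The 24 genes were chosen on these same old arrays and on a call with the set term, which rests on the young arrays. The size of their set 2 differences and the set 2 calls are therefore in part a result of that choice.

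A few genes had sizeable values on the Zmpste24 deficient side too, without passing the test there. Hamp differed from young WT mice by -1.98 (adjusted p = 0.175) in set 1 and by -3.88 (adjusted p = 3.48e-06) in set 2, so that both old groups read below the young. Zbtb16 differed by 1.27 (adjusted p = 0.319) in set 1 and by -1.25 (adjusted p = 0.0427) in set 2. Fam205a2 differed by 0.85 and -1.18. Over all genes the set 1 comparison called 2 genes (0.00902%), 1 higher (0.00451%) and 1 lower (0.00451%), with 2078 at an unadjusted p under 0.05, and the set 2 comparison called 1802 (8.12%), with 1104 higher (4.98%) and 698 lower (3.15%) in old WT mice. The 2 genes called in set 1 were Stfa2l1, a stefin of the cystatin superfamily (2.02, adjusted p = 0.00541), and Matn4, the matrix protein matrilin 4 (-0.69, adjusted p = 0.0398). Both are named for the smallness of that count, and Stfa2l1 was chosen after its values were seen. Without KO_old_sal 2 the set 1 count was 595, and without any other single array of the old groups it was between 1 and 4. The young WT arrays were not left out in turn. Stfa2l1 read 7.81, 7.70 and 7.28 in the old Zmpste24 deficient and 7.38, 7.35 and 7.30 in the old WT arrays, and was likewise higher in old than in young WT mice (1.93, adjusted p = 8.43e-05).

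**Figure D3:**
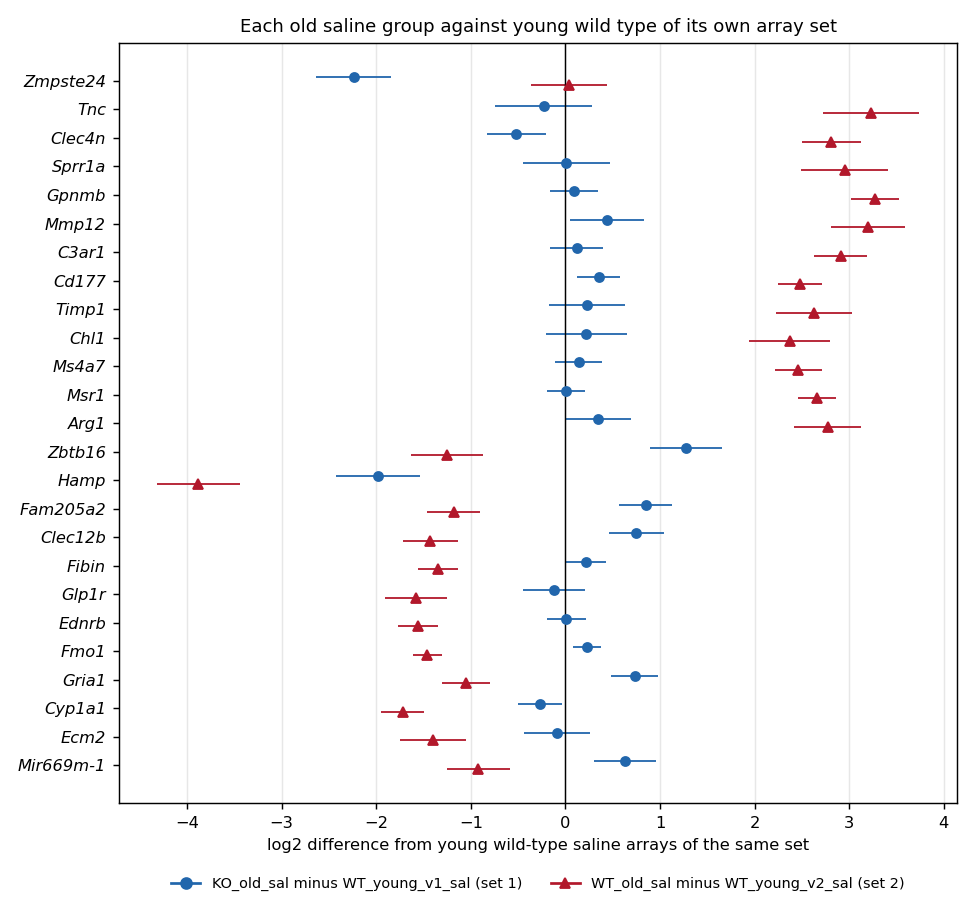
Log2 difference of each old saline group from the young WT saline mice of its own array set (horizontal axis, points with SE bars) for Zmpste24 and the 24 leading genes; blue circles are old Zmpste24 deficient minus young WT mice in set 1, red triangles old WT minus young WT mice in set 2. Gpnmb stands at 0.09 in set 1 and 3.27 in set 2, and Zmpste24 at -2.24 and 0.04. The 24 genes were chosen on the same old arrays, so their distances from 0 follow in part from that choice.

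Genes of lipid-laden and profibrotic macrophages were lower almost throughout. Of 19 members 17 were lower and 0 higher, where 10.2% of all genes were lower, and the median difference was -1.85 against -0.037 over all genes. Beside those above, C1qb, a chain of complement C1q made by tissue macrophages, read 9.83, 8.85 and 8.32 against 11.17, 11.23 and 11.19 (-2.20). Ctsk, the lysosomal collagenase cathepsin K, read 7.56, 7.20 and 7.08 against 9.04, 9.12 and 9.04 (-1.78, adjusted p = 1.76e-05). These arrays did not overlap either. Trem2 (-2.08), a lipid receptor, and Cd68 (-1.85), an endosomal glycoprotein, were lower, whereas Cd9 (-0.39) and the fatty acid transporter Cd36 (-0.16) were not called. Without KO_old_sal 3 the count was 16, with the set term also 16. Within set 1 the list median against young WT mice was 0.138, within set 2 it was 2.055. The counts of this and all other lists stand against shares over all genes of 3.44% higher and 10.2% lower. Without KO_old_sal 3 these shares were 4.27% and 6.24%, and with the set term 1.52% and 4.76%.

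In the list of resident alveolar macrophages 5 of 14 were lower and 2 higher, against 3 lower and 3 higher without KO_old_sal 3. Marco, a scavenger receptor, read 7.15, 7.28 and 6.92 against 8.94, 8.93 and 8.91 (-1.81, adjusted p = 3.44e-05). Its old WT arrays were nearly equal, while Pparg, the transcription factor on which these cells depend, read 7.31, 6.95 and 5.93 against 7.20, 7.42 and 7.46 and was not called (adjusted p = 0.0626). Of 12 monocyte genes 3 were lower, among them the chemokine receptor Ccr2 (-1.19). Of 11 dendritic cell genes 6 were lower. In the lymphocyte lists 1 of 15 B and plasma cell genes was lower (Sdc1, syndecan 1), and of 19 T and NK cell genes 2 were higher and 1 lower, where 13.7% of all genes were called. Gzma, the protease granzyme A of cytotoxic cells, read 7.51, 6.29 and 5.84 against 4.64, 5.19 and 5.31 (1.5, adjusted p = 0.00305), but its difference with the set term was 0.84 (adjusted p = 0.23).

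Lysosomal, complement and chemokine genes were lower in part, and no member of these lists was higher. The mean log2 level of the macrophage list moved with them, at 7.71 to 8.32 in the Zmpste24 deficient and 9.62 to 9.72 in the old WT arrays, and its part in them was not tested. The macrophage list shares Ctsk with the lysosome list, C1qa and C1qb with the complement list and Ccl9 with the chemokine list. Their joint movement is therefore partly built in. Of 22 lysosome and autophagy genes 15 were lower (median -0.961). Most of those called are enzymes or carriers of the lysosomal lumen. Ctsd, the aspartic protease cathepsin D, read 10.98, 10.94 and 10.83 against 12.64, 12.49 and 12.59 (-1.66 ± 0.16, 3.15-fold, adjusted p = 1.38e-07). Regulators of autophagy such as Becn1 (-0.16), Ulk1 (0.03) and Tfeb (-0.08) were not called, and Atg5 (-0.90) and Atg7 (-0.41), both needed for autophagosome formation, were lower. Of 16 complement and acute phase genes 10 were lower (median -0.908), and of 29 chemokine and receptor genes 12 were lower (median -0.513). Ccl2, the monocyte attractant, read 6.62, 6.31 and 6.85 against 8.61, 8.60 and 8.50 (-1.97 ± 0.24, adjusted p = 4.64e-06). Ccl3 (-2.17), Ccl9 (-2.17) and Ccl12 (-1.96) were lower as well, while Ccl5 (0.31), Cxcl9 (0.36) and Ccl11 (0.26) were not called. Among 18 NF-kappaB targets and inflammasome genes 7 were lower, the cytokines Il6 (-1.21) and Tnf (-1.03) among them, and Ccl2 was counted here again.

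The type I interferon response was lower in the old Zmpste24 deficient than in the old WT lung. Of 21 members 18 were lower and 0 higher (median -0.987), 16 without KO_old_sal 3 and 13 with the set term. Against young WT mice of set 1 the list median was -0.081, with 0 higher and 0 lower. In set 2 it was 0.732, with 13 higher and 0 lower in old WT mice. Isg15, a ubiquitin-like modifier, read 6.29, 5.82 and 5.49 against 7.84, 8.20 and 7.68 (-2.04 ± 0.26, 4.11-fold, adjusted p = 7.93e-06). Irf7, the transcription factor that amplifies the response, read 7.63, 7.82 and 8.01 against 9.60, 9.69 and 9.60 (-1.81 ± 0.18, 3.50-fold, adjusted p = 4.41e-07). Both pairs of groups were fully apart. Oas2, a sensor of double-stranded RNA, read 7.20, 7.88 and 7.86 against 9.65, 9.55 and 9.55 (-1.94, adjusted p = 9.79e-07), and Bst2, the membrane protein tetherin, 8.25, 9.01 and 8.69 against 10.02, 10.21 and 10.06 (-1.45, adjusted p = 4.57e-06). Ifit2 (-0.25), Ifit3 (-0.15) and Xaf1 (-0.24) were not called. Of 18 genes that respond mainly to interferon gamma 1 was lower (Cxcl10, -1.15) and the list median was 0.194. Of 16 antigen presentation genes 2 were lower, a share near the 10.2% of all genes.

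The interferon-stimulated response element, whose core was searched as GAAANNGAA on both strands, is the site through which interferon-activated factors reach these genes. Promoter windows of 250 bases before to 50 bases after the gene start (RefSeq, build GRCm38.p6) were at hand for 15 of the 21 members. The core stood in 10 of these windows, and in 9 of the 12 called lower, against 8.56% of all 32851 windows and 9.76% of the 27025 genes with a window. The windows of 3 lower members are shown because they carry the motif, in capitals, near the start of the gene. Overlapping matches run together, and the Ifit1 window shows the core on the opposite strand.
Isg15 (chr4:156200769-156201068, minus strand): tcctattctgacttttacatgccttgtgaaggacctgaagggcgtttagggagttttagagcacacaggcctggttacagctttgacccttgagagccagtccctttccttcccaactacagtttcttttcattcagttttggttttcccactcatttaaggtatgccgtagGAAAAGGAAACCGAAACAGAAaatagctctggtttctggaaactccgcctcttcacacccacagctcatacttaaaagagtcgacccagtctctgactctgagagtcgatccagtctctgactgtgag
Bst2 (chr8:71537423-71537722, minus strand): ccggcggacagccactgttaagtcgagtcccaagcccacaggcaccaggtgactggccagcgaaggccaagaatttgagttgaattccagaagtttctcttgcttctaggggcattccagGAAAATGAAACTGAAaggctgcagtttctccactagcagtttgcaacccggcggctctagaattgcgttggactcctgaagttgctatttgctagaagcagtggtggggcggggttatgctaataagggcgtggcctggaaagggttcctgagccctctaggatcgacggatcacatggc
Ifit1 (chr19:34640639-34640938, plus strand): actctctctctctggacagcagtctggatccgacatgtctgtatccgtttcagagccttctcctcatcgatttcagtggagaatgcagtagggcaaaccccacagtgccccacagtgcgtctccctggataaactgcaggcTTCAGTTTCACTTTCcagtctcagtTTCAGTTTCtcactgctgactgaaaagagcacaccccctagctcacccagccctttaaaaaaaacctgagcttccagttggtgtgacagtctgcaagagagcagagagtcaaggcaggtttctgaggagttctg
Irf7 had no match to the core in its window. Ifit1 read 8.75, 7.56 and 6.97 against 9.13, 9.39 and 9.28 (-1.51, adjusted p = 0.00528), and without KO_old_sal 3 its difference was -1.11 (adjusted p = 0.0534).

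Genes of cell division were lower too. Of 22 cell cycle and mitosis genes 17 were lower (median -0.983), 15 without KO_old_sal 3 and 9 with the set term. Against young WT mice of set 1 the list median was 0.084, with 0 higher and 0 lower. In set 2 it was 0.942, with 18 higher and 0 lower in old WT mice. Top2a, the topoisomerase of dividing cells, read 6.72, 6.35 and 5.86 against 8.06, 8.17 and 8.0 (-1.76 ± 0.31, 3.40-fold, adjusted p = 0.000284). Ccna2, cyclin A2, read 6.60, 6.60 and 6.16 against 8.22, 8.06 and 8.02 (-1.65, adjusted p = 0.000118). Mki67, which encodes the proliferation antigen Ki-67, read 8.18, 7.5 and 6.80 against 8.87, 9.03 and 8.63 (-1.35, adjusted p = 0.00353). No Zmpste24 deficient array reached an old WT array in any of these. Of 18 DNA replication genes 7 were lower, but 3 without KO_old_sal 3 and 2 with the set term. In the promoter windows of the cell cycle list, the CCAAT box (CCAAT, both strands) stood in 15 of 17 and the cell cycle homology region (TTTGAA or its reverse TTCAAA) in 12 of 17, against 37.4% and 17.9% of all windows.

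Of 19 p53 targets and senescence genes 10 were lower and 1 higher in the old Zmpste24 deficient than in old WT mice (median -0.631). With the set term 8 were lower and 0 higher. Against young WT mice of set 1 the list median was -0.091, with 0 higher and 0 lower. In set 2 it was 0.528, with 10 higher and 0 lower in old WT mice. Ccng1, cyclin G1, a direct p53 target, read 9.60, 9.12 and 7.73 against 10.81, 10.88 and 11.01 (-2.08 ± 0.28, 4.24-fold, adjusted p = 2.15e-05). KO_old_sal 3 was by far its lowest array, and without it the difference was -1.54. Eda2r, a receptor of the tumour necrosis factor family and a p53 target, read 4.91, 5.17 and 5.45 against 6.44, 6.20 and 6.26 (-1.12, adjusted p = 0.000174). Cdkn1a (-1.13), the cell cycle inhibitor p21, was not called, nor were the senescence inhibitors Cdkn2a (-0.19) and Cdkn2b (0.08). Btg2 (0.56), an antiproliferative p53 target, was higher.

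Extracellular matrix genes were read by kind. Of 20 collagens 10 were lower and 0 higher (median -0.434), 9 without KO_old_sal 3 and 5 with the set term. Col1a1, of the main fibrillar collagen, read 8.62, 9.25 and 8.73 against 11, 10.91 and 10.90 (-2.07 ± 0.38, 4.20-fold, adjusted p = 0.0005), and Col3a1 8.42, 8.39 and 7.95 against 9.98, 9.86 and 9.90 (-1.66, adjusted p = 0.000232). Col1a1 differed from young WT mice by -0.78 (adjusted p = 0.535, not called) in set 1 and by 1.21 (adjusted p = 0.0478) in set 2. Of 17 metalloproteinases and inhibitors 9 were lower and 1 higher (Mmp28, 0.69). Mmp13, a collagenase, read 4.39, 4.33 and 4.71 against 6.75, 6.62 and 6.07 (-2.0, adjusted p = 1.76e-05). The gelatinase Mmp9 (-0.19), Timp2 (-0.00) and Timp3 (0.28) were not called.

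Matrix glycoproteins were lower in 9 of 23 and higher in 2. Fn1, fibronectin, read 10.25, 11.26 and 9.68 against 12.16, 12.20 and 12.17 (-1.78 ± 0.36, adjusted p = 0.00131), and Tgfbi, a matrix protein induced by TGF-beta, read 10.04, 9.83 and 8.92 against 11.16, 11.18 and 11.27 (-1.60, adjusted p = 2.8e-05). Igfbp3, which binds insulin-like growth factors, went the other way with 8.32, 8.21 and 7.39 against 6.73, 6.53 and 6.69 (1.32 ± 0.23, 2.51-fold, adjusted p = 0.00029). Elastic fibre genes showed 1 of 15 lower. Eln, elastin, read 9.03, 9.48 and 9.46 against 9.78, 9.73 and 9.99 and was not called (adjusted p = 0.414), although its arrays did not overlap. Dcn, the small proteoglycan decorin, read 10.34, 9.96 and 7.99 against 9.99, 10.08 and 10.04, so that its difference of -0.61 (adjusted p = 0.331) came with 1 low array, KO_old_sal 3, and was 0.11 without it.

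Of 12 genes of transitional repair epithelium 8 were lower (median -1.008), also 8 without KO_old_sal 3 and 8 with the set term. Against young WT mice of set 1 the list median was -0.138, with 0 higher and 0 lower. In set 2 it was 0.934, with 10 higher and 0 lower in old WT mice. Cldn4, a tight junction claudin of stressed epithelium, read 6.07, 6.39 and 6.87 against 8.51, 8.26 and 8.31 (-1.91 ± 0.21, 3.77-fold, adjusted p = 1.2e-06). Krt8, a keratin of simple epithelium, read 8.68, 8.23 and 8.12 against 9.27, 9.21 and 9.22 (-0.89, adjusted p = 0.000151). Mature alveolar type 2 markers were called in part, and the calls moved with KO_old_sal 3. Sftpc, surfactant protein C, read 13.52, 13.23 and 12.84 against 13.14, 13.16 and 13.19 (adjusted p = 0.898), and the list had 3 of 14 lower, against 10.2% of all genes, 0 without KO_old_sal 3 (1 higher) and 0 with the set term. Among 12 alveolar type 1 genes 3 were higher and 2 lower, against 4 higher and 1 lower without KO_old_sal 3. Ager, the receptor for advanced glycation end products, read 12.40, 12.39 and 11.63 against 12.11, 12.12 and 12.24 and was not called. Club and ciliated cell lists had 1 higher and 3 lower of 13, and 3 lower of 12. These became 3 higher and 1 lower, and 1 higher and 2 lower, without KO_old_sal 3.

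Some alveolar fibroblast and capillary genes were higher. Of 14 alveolar fibroblast genes 7 were higher and 0 lower, where 3.44% of all genes were higher, with a median of 0.62, and the count was 9 without KO_old_sal 3 and 4 with the set term. Inmt, an indolethylamine N-methyltransferase abundant in these cells, read 11.97, 11.48 and 11.33 against 10.26, 10.31 and 10.41 (1.26 ± 0.17, 2.40-fold, adjusted p = 1.99e-05). Slc7a10, an amino acid transporter, read 7.51, 7.98 and 7.62 against 6.60, 6.66 and 6.75 (1.03, adjusted p = 0.003). No old WT array of either gene reached the Zmpste24 deficient arrays. Of 14 capillary genes 5 were higher and 1 lower (Sirpa, also on myeloid cells, -1.08). The counts were 8 and 1 without KO_old_sal 3, and 4 and 1 with the set term. Kdr, the VEGF receptor 2, read 10.10, 10.89 and 9.84 against 9.62, 9.64 and 9.74 (0.61, adjusted p = 0.0161), while the pan-endothelial adhesion molecules Pecam1 (0.29) and Cdh5 (0.50) were not called. Both adhesion molecules were called higher without KO_old_sal 3, Pecam1 at 0.37 (adjusted p = 0.0411) and Cdh5 at 0.8 (adjusted p = 0.00248). Neither was called with the set term. Arterial and venous genes were mixed, 1 higher and 4 lower of 12, with Vwf, von Willebrand factor, at 8.90, 9.41 and 8.98 against 9.92, 10.03 and 9.87 (-0.84, adjusted p = 0.00169).

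**Figure D4:**
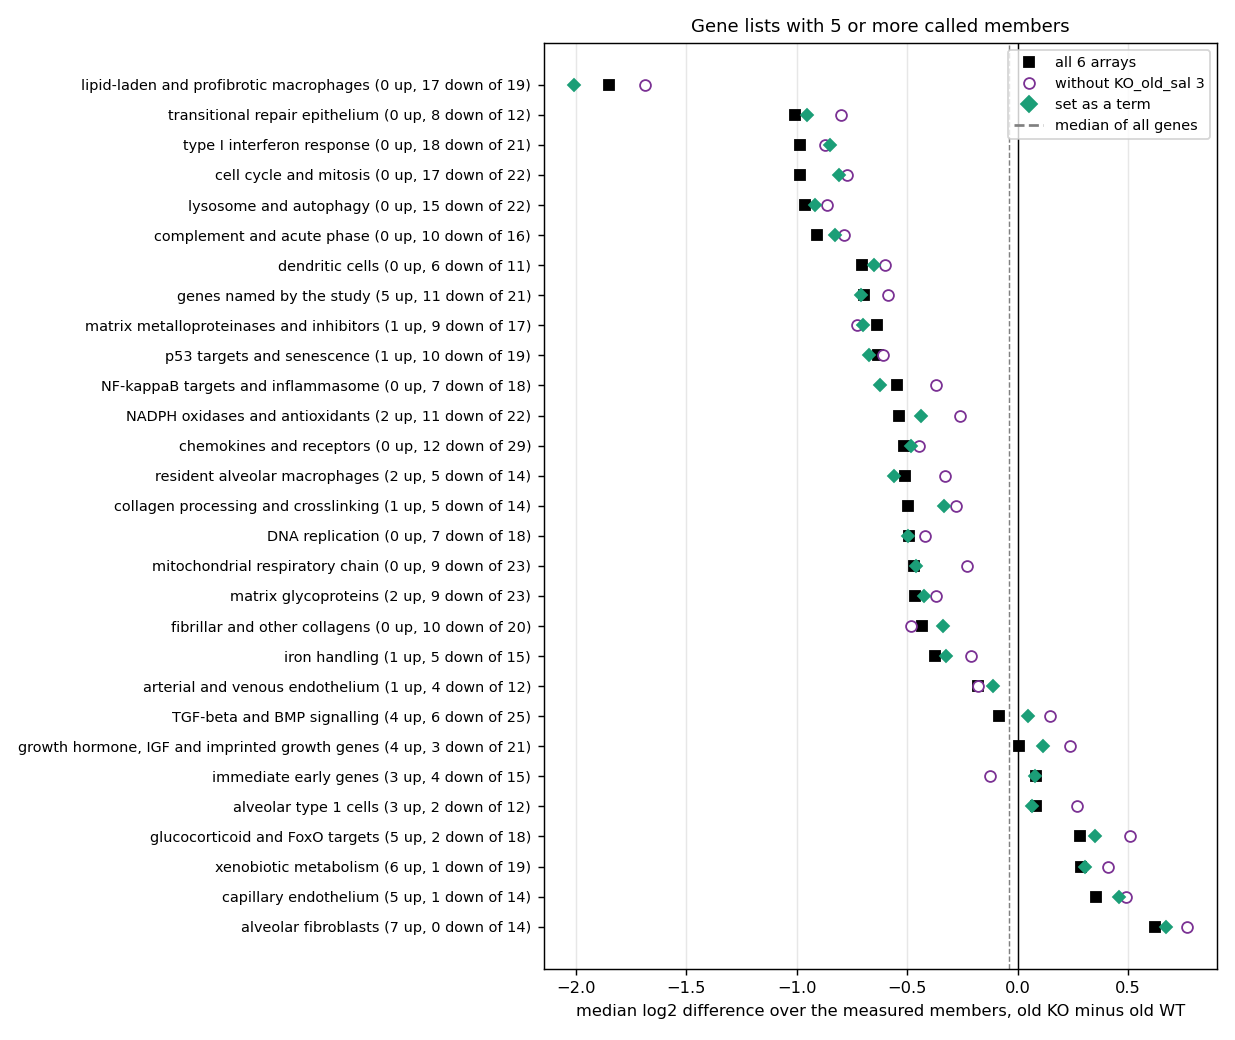
Median log2 difference, old Zmpste24 deficient minus old WT lung (horizontal axis), over the measured members of each gene list with 5 or more called members; black squares use all 6 arrays, open circles leave out KO_old_sal 3, green diamonds carry the array set as a term, and the dashed line is the median of all genes (-0.037). The macrophage list lies lowest at -1.85 and the alveolar fibroblast list highest at 0.62.

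Signalling lists held members of both directions. Of 25 TGF-beta and BMP genes 4 were higher and 6 lower. The balance turned to 7 higher and 3 lower without KO_old_sal 3, and with the set term 3 were higher and 2 lower. Grem1, the BMP antagonist gremlin 1, read 5.68, 5.67 and 5.53 against 7.49, 7.20 and 7.64 (-1.82 ± 0.30, 3.53-fold, adjusted p = 0.000166), and Bmp6, a BMP ligand, read 9.23, 9.62 and 8.78 against 8.08, 8.27 and 8.19 (1.03, adjusted p = 0.00102). Both pairs of groups were apart, in opposite directions. Tgfb1, the ligand itself, read 9.21, 9.65 and 8.54 against 9.77, 9.88 and 9.83 (-0.70, adjusted p = 0.0151), and its difference without KO_old_sal 3 was -0.40 (adjusted p = 0.146). Tgfbr3, the coreceptor betaglycan, read 8.77, 9.07 and 8.12 against 7.66, 7.79 and 7.60 (0.98, adjusted p = 0.00146). Of 23 Wnt genes 1 was higher and 1 lower, against 4 higher and 1 lower without KO_old_sal 3. Among 15 immediate early genes 3 were higher and 4 lower, with the phosphatase gene Dusp1 (0.93) and the transcription factor gene Atf3 (-1.12) at the ends, and of 16 clock genes 2 were higher and 2 lower.

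Metabolic and stress lists held calls in both directions. Of 19 xenobiotic metabolism genes 6 were higher and 1 lower. Fmo2, a lung monooxygenase, read 11.95, 11.96 and 11.43 against 10.95, 11 and 10.83 (0.86, adjusted p = 0.000615). Among 18 glucocorticoid and FoxO targets 5 were higher and 2 lower: Klf15, a Krüppel-like factor, read 8.42, 7.58 and 7.91 against 6.84, 6.58 and 6.43 (1.35 ± 0.24, adjusted p = 0.000352), and the lower members were the metallothioneins Mt1 (-1.39) and Mt2 (-1.69). Hif3a, a hypoxia-inducible factor subunit, read 7.64, 6.98 and 7.52 against 6.26, 6.33 and 6.46 (1.03, adjusted p = 0.00354), with 1.0 (adjusted p = 0.179) against young WT mice within set 1, where it was not called, and 0.04 within set 2. Of 21 growth hormone, IGF and imprinted growth genes 4 were higher and 3 lower. Peg3, an imprinted zinc finger gene, read 7.58, 7.79 and 7.76 against 6.62, 6.54 and 6.84 (1.04 ± 0.15, adjusted p = 3.74e-05). Igf1, insulin-like growth factor 1, read 7.30, 7.11 and 7.44 against 8.26, 8.32 and 8.49 (-1.07, adjusted p = 0.00217).

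Oxidant and respiratory genes were lower in part. Of 22 NADPH oxidase and antioxidant genes 11 were lower and 2 higher, 9 and 4 without KO_old_sal 3. Hmox1, heme oxygenase 1, read 7.53, 7.35 and 6.58 against 9.17, 9.15 and 9.01 (-1.95 ± 0.24, 3.87-fold, adjusted p = 6.87e-06), and Cybb, the catalytic subunit of the phagocyte oxidase, read 9.39, 9.41 and 8.56 against 10.68, 10.75 and 10.88 (-1.65, adjusted p = 0.0005). Nox4, an oxidase of mesenchymal cells, read 9.82, 9.61 and 8.71 against 8.50, 8.65 and 8.90. It was higher at 0.70 (adjusted p = 0.042), its groups overlapped through KO_old_sal 3, and without that array the difference was 1.04 (adjusted p = 0.00202). Of 23 respiratory chain genes 9 were lower, but 5 without KO_old_sal 3, where the list median moved from -0.468 to -0.231.

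Of 20 nuclear envelope and prelamin A processing genes 3 were lower, Zmpste24 among them, and 1 higher, a share near that of all genes (10.2% lower, 3.44% higher). Lmnb1, lamin B1, read 7.23, 7.25 and 7.22 against 8.03, 7.96 and 7.71 (-0.67, adjusted p = 0.00848), and Banf1, a chromatin protein that binds the lamina, 7.63, 7.62 and 6.98 against 8.16, 7.94 and 8.24 (-0.70, adjusted p = 0.00757). Lmna (-0.39), which encodes prelamin A, the farnesyltransferase subunits Fnta (-0.19) and Fntb (0.07), and Icmt (-0.01), which methylates prelamin A, were not called. Syne1, a nesprin that links nucleus and cytoskeleton, was higher (0.61).

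Markers of tissue that may adhere to a dissected lung were checked alongside. Skeletal muscle and basal and squamous epithelium lists had 0 called of 14 and 0 of 13. The cardiac muscle list, which in mouse lung reads pulmonary vein myocardium, had 1 of 14 higher, Hamp, but its median stood at -0.878 against young WT mice in set 1 and at -1.199 in set 2, where 10 of 14 were lower. The mean log2 level over the cardiac list was 6.58 to 7.24 in the Zmpste24 deficient and 6.64 to 6.66 in the old WT arrays. The part of this tissue in the Hamp difference was not tested. Of the other lists, 1 of 10 fat, 1 of 12 mast cell and eosinophil, 2 of 12 adventitial fibroblast, 1 of 14 myofibroblast, 2 of 17 proteoglycan, 1 of 14 collagen processing, 1 of 19 basement membrane and 1 of 15 iron handling genes were higher. Lower were 5 of the collagen processing and 5 of the iron handling genes, 4 of 20 unfolded protein and heat shock genes, 3 of the myofibroblast genes, 2 of 16 cholesterol and fatty acid synthesis, 2 of 13 smooth muscle and 2 of 7 neuroendocrine genes. A single gene was lower in each of the adventitial fibroblast, proteoglycan, basement membrane, mesothelium, lymphatic and platelet lists. Over all genes 3.44% were higher and 10.2% lower. Some of these counts moved with KO_old_sal 3. When it was left out, 1 collagen processing gene and 1 unfolded protein and heat shock gene were lower, while the iron handling list stayed at 5 lower.

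MicroRNA genes were called higher more often than lower, and this moved with KO_old_sal 3. Of 483 measured microRNA genes 40 (8.28%) were higher and 4 lower, where 3.44% of all genes were higher. Without that array 18 were higher and 6 lower, where 4.27% of all genes were higher. With the set term 9 were higher and 3 lower, where 1.52% of all genes were higher. The microRNA share was thus well above that of all genes only in the fit with all arrays and no set term. KO_old_sal 3 was the highest of the 3 Zmpste24 deficient arrays in 26 of the 40, and the probe sets of microRNA genes read the primary or precursor transcript rather than the mature microRNA. Of the microRNA genes named by the study, Mir27a read 7.23, 7.78 and 8.08 against 6.66, 6.57 and 6.97 (0.97 ± 0.20, adjusted p = 0.00183), with 0.78 (adjusted p = 0.018) without KO_old_sal 3 and 0.64 (adjusted p = 0.12) with the set term. Its groups did not overlap. Its cluster neighbour Mir23a read 6.55, 7.30 and 7.65 against 6.51, 6.26 and 7.23 and was not called (adjusted p = 0.236). Mir145a read 5.80, 7.27 and 6.88 against 5.21, 5.86 and 5.29 (1.20, adjusted p = 0.0158), with overlapping groups, and was not called without KO_old_sal 3. Mir143, listed here with Mir145a but not named by the study, read 7.26, 7.41 and 8.21 against 6.89, 6.88 and 7.11 (0.67, adjusted p = 0.0389), and was not called without KO_old_sal 3 either (0.38, adjusted p = 0.291). Mir29a read 3.24, 3.92 and 4.63 against 3.01, 3.24 and 2.82 (adjusted p = 0.0893). Mir29b-1 read 2.29, 2.88 and 2.14 against 2.40, 2.88 and 2.29 (-0.09, adjusted p = 0.842), and Mir491 3.24, 4.01 and 2.98 against 3.20, 3.18 and 2.96 (0.29, adjusted p = 0.456). The groups overlapped for Mir29a, Mir29b-1 and Mir491, and none of them was called.

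In all 3 fits 11 microRNA genes were called, 8 of them higher. Mir103-2, chosen here after its values were seen, read 6.65, 6.82 and 7.35 against 5.44, 5.66 and 5.57 (1.39 ± 0.22, adjusted p = 0.000123). Mir107, chosen for its relation to it, read 6.66, 6.99 and 7.92 against 6.39, 6.05 and 6.99, and these groups overlapped (0.71, adjusted p = 0.0393, and 0.35 without KO_old_sal 3). Mir200b, also chosen after its values were seen and known for restraining the mesenchymal transition of epithelium, read 6.00, 6.57 and 7.01 against 5.24, 5.77 and 5.88 (0.90, adjusted p = 0.00443). The mature sequences are shown (RefSeq, GRCm38.p6) with the seed, bases 2 to 8, in capitals. miR-103 and miR-107 carry the same seed.
miR-103-3p (chr2:131288103-131288125, plus strand): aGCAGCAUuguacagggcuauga
miR-107-3p (chr19:34820700-34820722, minus strand): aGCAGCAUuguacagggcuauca
miR-200b-3p (chr4:156055685-156055706, minus strand): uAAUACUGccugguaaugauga
miR-27a-3p (chr8:84208727-84208747, plus strand): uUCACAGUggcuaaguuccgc

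Across the 10 groups of the series, the old WT saline arrays stood apart from the other saline arrays in the leading genes. As these genes were chosen on the old WT saline arrays, this is in part a result of that choice. Gpnmb lay between 7.01 and 8.23 in the old Zmpste24 deficient and the young WT saline arrays, at 10.82 to 10.92 in old WT saline arrays, and at 10.90 to 11.25 in old WT arrays after bleomycin. Irf7 lay at 9.60 to 9.69 in old WT saline arrays, above the 7.55 to 8.19 of old WT arrays after bleomycin. Top2a was 8.0 to 8.17 and 6.82 to 7.24 in those groups, and Tnc 9.53 to 9.66 and 6.59 to 9.31. Old WT mice given saline thus read at or above old WT mice given bleomycin in Irf7, Top2a and Tnc, and below them in Ednrb (7.25 to 7.48 against 7.61 to 7.85) and Fmo1 (8.60 to 8.68 against 9.27 to 9.58). Old Zmpste24 deficient mice given saline overlapped the young WT saline mice of set 1 in these genes, with Ednrb at 8.54 to 9.41 against 8.82 to 9.30 and Fmo1 at 10.20 to 10.42 against 9.96 to 10.27.

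**Figure D5:**
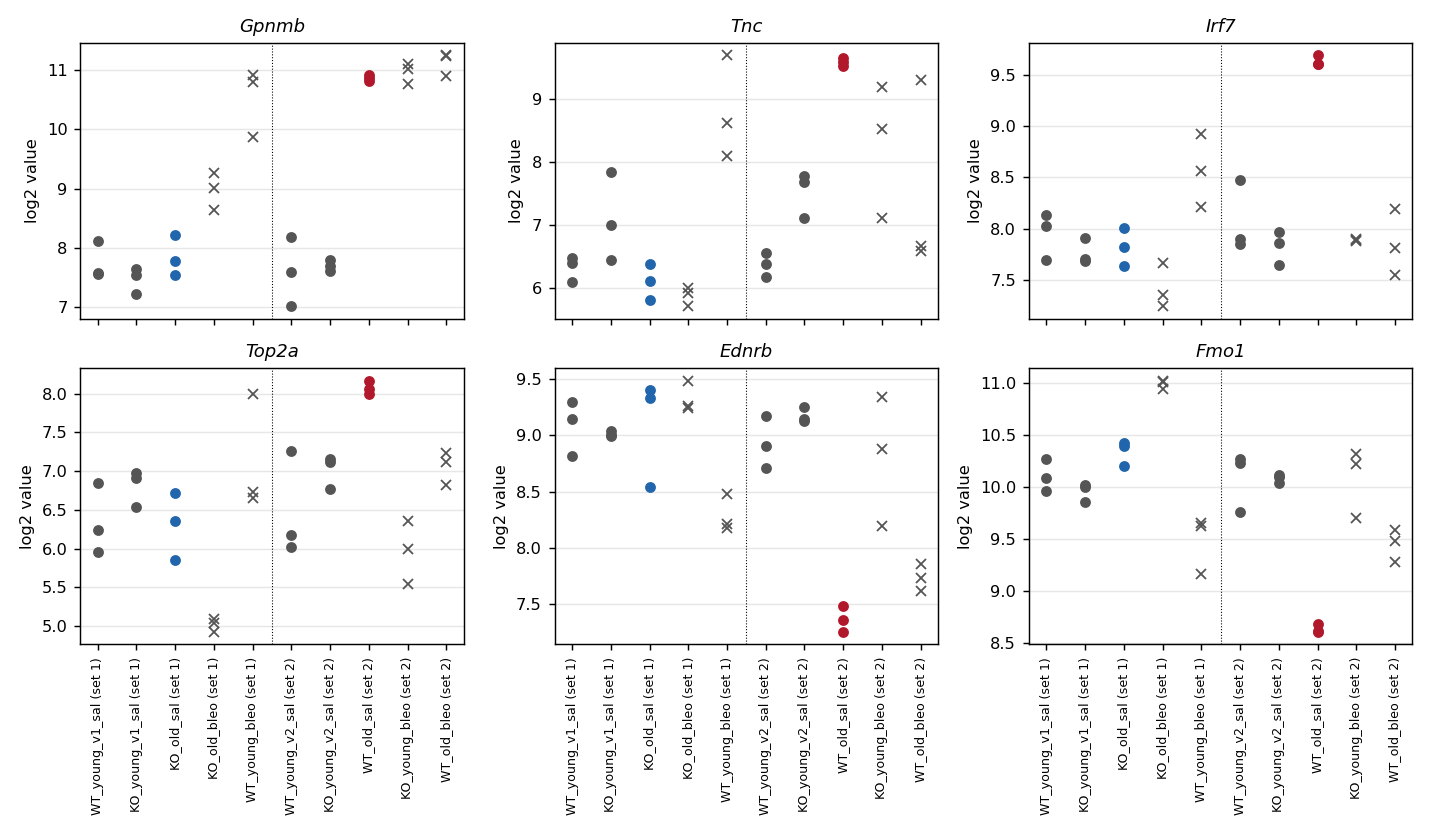
Log2 expression value (vertical axis) of 6 leading or list genes in each of the 30 arrays by group (horizontal axis), set 1 left and set 2 right of the dotted line; blue circles are old Zmpste24 deficient saline, red circles old WT saline, grey circles the other saline groups and crosses the bleomycin groups. Old WT saline arrays are the highest saline arrays for Gpnmb (10.82 to 10.92) and the lowest for Fmo1 (8.60 to 8.68).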

How the data were processed

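The authors deposited log2 expression values of 30 Affymetrix Mouse Gene 2.0 ST arrays, 3 lungs per group. Their background correction, normalization and probe set summary are not stated in any source at hand, so the log2 values were used as deposited. Depth has no meaning for arrays, and precision rests on 3 arrays per group.

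Of 41345 probe sets, 23521 named 1 gene in the platform annotation, 1820 several and 16004 none. The brightest probe set of each gene was kept, which gave 22180 genes. Groups came from the sample titles. Differences were fitted with limma 3.58.1 in R 4.3.3 (lmFit and eBayes) with 1 mean for each of the 10 groups, and p-values were adjusted over all genes by the Benjamini-Hochberg method; a call is an adjusted p under 0.05. A further fit added the array set, with young saline mice of each genotype pooled across sets. The labels give the young WT mice of set 1 an age of 16 weeks and those of set 2 an age of 7 weeks, and do not state whether the young mice of the sets were different animals. Of the 3 young WT arrays of set 1, each correlated best with a young WT array of set 2 (r of 0.987 to 0.993), so that the pooled fit may count some lungs again. Scripts were tested on simulated data.

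Named genes were Zmpste24, genes named by the study, the 12 highest and 12 lowest differences among genes called in both fits with arrays that did not overlap (predicted genes left out), and up to 6 members of each of 60 gene lists, called and non-overlapping members first; further list members are given by their difference alone. The comparison, the lists and the rule were chosen with earlier results of these data known. Sex-linked genes were read as a check. Alternatives are given in the closing section. Figures were drawn with matplotlib 3.10.9.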

Additional observations from a re-analysis of the deposited data

Results flagged for a closer look

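The within-set differences from young WT mice differed between the old groups in 612 genes. This was tested as the difference of the differences (old Zmpste24 deficient minus young WT mice in set 1, against old WT minus young WT mice in set 2) with limma at an adjusted p under 0.05. The old groups differ in genotype and in age, and by the labels the young WT mice were 16 weeks old in set 1 and 7 weeks old in set 2. The parts of genotype, of the old ages and of the young ages in it cannot be told apart.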

How the results depend on the processing

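The direction of the Zmpste24 deficient against old WT comparison did not turn in any alternative for the 24 leading genes: of 480 values 468 stayed on the same side of the threshold and 12 were no longer called, 3 with the set term from young knockout mice alone, 5 from young WT mice alone, 3 in a fit of the 6 arrays alone and 1 with the set term and without KO_old_sal 3. These 24 genes were chosen as called with and without the set term and with arrays that did not overlap. Their stability is therefore in part a result of that choice, and their calls with the set term follow from it. The count of called genes moved more. Against 3030, array weights gave 1885, a fit of the 6 arrays alone 412, the set term 1393, the set term from young knockout mice alone 595 and from young WT mice alone 612, an adjusted p under 0.01 gave 1424, and a log2 difference past 1 gave 486. Leaving out 1 array of the old groups in turn, here and below, gave 1901 to 4432 genes (1901 without WT_old_sal 2, 1955 without WT_old_sal 1, 2331 without KO_old_sal 3). Chosen after seeing the data, the set term without KO_old_sal 3 gave 1485 and the 5 arrays alone 1117. The count with the set term (1393) became 518 at an adjusted p under 0.01, 445 past 1, 595 and 612 with the set term from the young mice of a single genotype, and 805 to 2631 without 1 array (805 without WT_old_sal 2, 895 without WT_old_sal 1, 2631 without KO_old_sal 1). In set 1 the count of 2 became 4 with quantile normalization, 1 with centring on medians, 1 with array weights, 1 with the replicate block, and 1 to 595 without 1 array (595 without KO_old_sal 2). In set 2 the count of 1802 became 4821 with array weights and 1053 to 2609 without 1 array (1053 without WT_old_sal 2, 1133 without WT_old_sal 1, 1162 without WT_old_sal 3). Of the 475 list counts under the alternatives, 363 stayed within 1.5 times and 112 did not. The cause of these moves was not tested.

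Zmpste24 was no longer called with the set term from young knockout mice alone (-1.22, adjusted p = 0.292) or with the set term and without KO_old_sal 3 (-1.61, adjusted p = 0.0895). Of genes that were not called, Eln turned to 0.02 with the set term and 0.11 with young knockout mice alone. Dcn turned to 0.01 with array weights, 0.17 with the set term and without KO_old_sal 3, 0.11 with the 5 arrays alone, and ran from -1.06 to 0.11 without 1 array. Egr1 turned to -0.11 with array weights and ran from -0.18 to 0.65. Mir29b-1 stood at 0 with array weights, 0.06 with the 5 arrays alone, and -0.31 to 0.09 without 1 array. Mir491 stood at -0.01 with the set term from young knockout mice alone and at -0.01 to 0.51 without 1 array.

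The groups share replicate numbers only. Same-numbered arrays deviated together with correlations of 0.078, 0.252 and 0.263, so that the first pair was below the limit of 0.1, although every array correlated best with its own number. With the replicate block 2868 genes were called. A random block for the set could not be fitted. Precision is limited by 3 arrays per group, by the spread of KO_old_sal 3, and by the confounding of genotype, age and set.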
